A study of Sus scrofa with 22 samples.

Results

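Subcutaneous fat that the labels class as thick was compared between Hampshire and Pietrain pigs, by the reads of each microRNA (miRNA) in small RNA libraries. Libraries were chosen by breed and fat class alone: 5 of Hampshire thick fat and 4 of Pietrain thick fat, which are 9 of the 22 libraries of the study. All these pigs were females of 6 months, and the labels name no experimental treatment of the animals. Libraries of thin fat, 2 from Hampshire and 3 from Pietrain pigs, and 4 libraries of Large White thick fat entered only the comparisons named as such. The labels give no thickness in units and do not say whether animals shared a litter, a farm or a slaughter day. Breed is therefore a label of whole animals here, and any difference in rearing or in library preparation cannot be told apart from it, the more so as each breed was deposited in a table of its own.

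A miRNA is a short RNA that guides Argonaute proteins to messenger RNAs, mainly through its seed, the bases 2 to 8 from its 5′ end, and lowers their translation and stability. miRNAs with a shared seed are read as a family, because they can pair with many of the same messages. In fat, miRNAs are best known for steering preadipocytes toward or away from the adipocyte fate and for marking white against heat-producing adipocytes, mostly from work in mice and human cells. In whole tissue, fewer cells of a type and less RNA per cell cannot be told apart.

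The sequences on which the comparison turns are shown here by family, because several called miRNAs had a relative with the same seed that was not called. Each is the most abundant sequence of its name over the 9 libraries, read from the deposited count tables, 5′ to 3′, with the seed in capitals. The first group has the seed of miR-27, the second that of miR-32 and miR-92, the third that of miR-148 and miR-152, the fourth that of miR-17 and miR-20, and the last holds miRNAs that share a seed with no other one shown.
miR-27a: uUCACAGUggcuaaguuccg
miR-27b-3p: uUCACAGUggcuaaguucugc
miR-32: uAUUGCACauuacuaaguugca
miR-92a: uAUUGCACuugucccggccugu
miR-148a-3p: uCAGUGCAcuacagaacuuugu
miR-148b-3p: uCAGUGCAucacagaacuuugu
miR-152: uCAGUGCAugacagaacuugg
miR-20a: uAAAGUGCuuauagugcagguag
miR-17-5p: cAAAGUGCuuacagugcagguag
miR-455-5p: uAUGUGCCuuuggacuacaucgu
miR-140-3p: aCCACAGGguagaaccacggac
miR-365-3p: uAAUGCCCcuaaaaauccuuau

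miR-27a and miR-27b-3p share their 5′ parts and differ near the 3′ end, so reads that stop before the difference cannot be told apart, and how the authors assigned them is not given in the sources used here.

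The libraries held 431542 to 2315501 reads in Hampshire thick fat and 759210 to 3137757 reads in Pietrain thick fat. The tables named 223 miRNAs for Hampshire and 217 for Pietrain, of which 197 stood in both and 150 had enough reads to be tested. Values below are CPM (counts of a miRNA scaled to a common library total) with library sizes scaled by TMM, and fold changes are log2, Hampshire minus Pietrain, with a standard error (SE) or a 95% interval. The share of unnamed reads averaged 0.103% ± 0.0533 in Hampshire and 0.0473% ± 0.0235 in Pietrain libraries (SD, n = 5 and 4; exact permutation p = 0.0317, adjusted over 5 library measures 0.0794). Mean read length was 21.8 ± 0.0454 nt in Hampshire and 21.9 ± 0.0410 nt in Pietrain libraries (exact permutation p = 0.0952, adjusted 0.159). The tables also differed in a base-level property. Over the 20 most abundant miRNAs whose leading sequence begins with U, the median share of the change U1G, counted from 1 at the 5′ end, was 0% in each Hampshire library and 0.727% to 0.796% in the 4 Pietrain libraries. Whether this came with the breeds or with how their libraries were made and read cannot be told apart, and its part in the results was not tested.

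Thick fat of Hampshire pigs held more miR-148a-3p, miR-27a, miR-455-5p and miR-32 and less miR-20a than thick fat of Pietrain pigs. Of the 150 miRNAs, these 5 (3.33%) passed an adjusted p of 0.05 in edgeR's quasi-likelihood test with Benjamini-Hochberg adjustment, 4 higher (2.67%) and 1 lower (0.667%). Below, called means past this test unless another tool is named. In 22 of 150 (14.7%) the highest library of one breed lay below the lowest of the other, with 9 higher (6%) and 13 lower (8.67%) in Hampshire. The median log2 fold change over all 150 was 0.03, with 80 positive and 70 negative, and it moved to -0.08 with upper quartile scaling and on library totals. The split of 4 higher and 1 lower was 4 and 2 with RLE scaling, 3 and 2 with upper quartile scaling and 4 and 9 on library totals. At an unadjusted p of 0.05, 33 passed (22%). DESeq2 called 28 (18.7%) and limma-voom 26 (17.3%).

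The 5 calls depended on single libraries. All 5 were lost without Hampshire library 1, or without any 1 of Pietrain libraries 1, 2, 3 and 4, and miR-148a-3p was lost also without Hampshire library 2, 4 or 5, while 9 were called without Hampshire library 3. The fold changes held more steadily: that of miR-27a ran from 1.03 to 1.19 with 1 library left out.

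**Figure D1:**
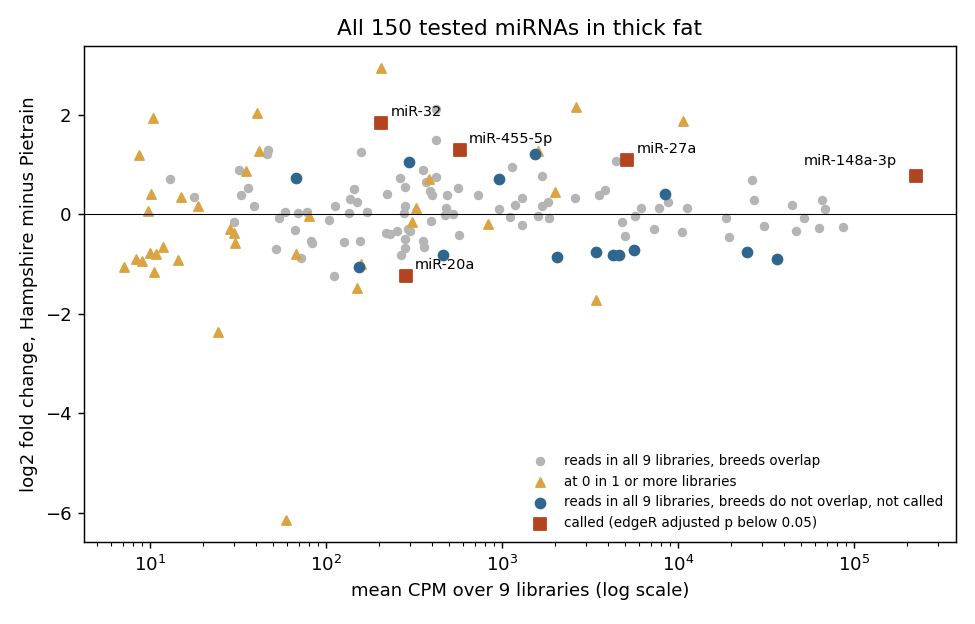
Each point is 1 of the 150 tested miRNAs, with its mean CPM over the 9 thick fat libraries (log scale) against its log2 fold change, Hampshire minus Pietrain. Squares are the 5 called miRNAs, from miR-20a at -1.24 to miR-32 at 1.83, blue circles those with no overlap between breeds that were not called, and triangles those at 0 in 1 or more libraries, which include the widest fold changes.

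miR-148a-3p had the highest mean CPM of all miRNAs in both breeds, although miR-143-3p stood above it in Pietrain library 1, at 137453 CPM. It is known from human and mouse cells to promote adipocyte differentiation. Hampshire thick libraries 1 to 5 held 300281, 297249, 198735, 312893 and 265787 CPM, against 123749, 155836, 186709 and 177096 CPM in Pietrain thick libraries 1 to 4. The lowest Hampshire library, number 3, still lay above the highest Pietrain library, number 3. The log2 fold change was 0.77 ± 0.17 (SE; adjusted p = 0.0467, edgeR quasi-likelihood). As a share of all reads with no scaling, miR-148a-3p took 26.3% ± 2.83 in Hampshire and 16.8% ± 3.30 in Pietrain libraries (SD, n = 5 and 4; exact permutation p = 0.0159, the smallest that 5 against 4 allows, adjusted over 5 measures 0.0794). The 5 most abundant miRNAs together took 46.1% to 55.4% of the reads tested, so a shift in 1 of them bears on every other share. With scaling factors computed without miR-148a-3p the same 5 miRNAs were called, and its own log2 fold change was 0.83 (adjusted p = 0.0470, edgeR quasi-likelihood). With upper quartile scaling its adjusted p was 0.0559 (edgeR quasi-likelihood).

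miR-27a is a repressor of adipocyte differentiation in mouse and human preadipocytes, where it lowers PPARG, the master regulator of that fate. It stood at 6156, 7968, 4489, 7409 and 7571 CPM in the Hampshire thick libraries, against 3117, 3162, 3213 and 3241 CPM in the Pietrain thick libraries. The Pietrain libraries lay within a narrow band, and each Hampshire library was above it. The log2 fold change was 1.08 ± 0.18 (SE; adjusted p = 0.0202, edgeR quasi-likelihood). The other arm of the same hairpin, miR-27a-5p, was rare, at a mean of 7.32 CPM in Hampshire and 13.2 CPM in Pietrain libraries, and was not called (log2 fold change -0.78 ± 0.70 SE).

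miR-455-5p is known from mouse brown fat, where the miR-455 hairpin promotes the thermogenic program. It had 819, 759, 548, 1007 and 778 CPM in Hampshire thick libraries, against 238, 373, 319 and 351 CPM in Pietrain thick libraries. The breeds did not overlap, and the log2 fold change was 1.29 ± 0.23 (SE; adjusted p = 0.0202, edgeR quasi-likelihood). miR-32, reported in mice to be abundant in brown fat and to support heat production, had 299, 303, 221, 233 and 457 CPM in Hampshire thick libraries, against 44.7, 77.3, 112 and 108 CPM in Pietrain thick libraries. Hampshire library 5 was the highest, and even the lowest Hampshire library exceeded each Pietrain one. Its log2 fold change of 1.83 ± 0.35 (SE; adjusted p = 0.0202, edgeR quasi-likelihood) was the widest among the 5 calls.

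The only miRNA called lower was miR-20a, a member of the miR-17-92 cluster, which is known to drive cell proliferation and has been reported to favour adipocyte differentiation in cell culture. It stood at 151, 151, 139, 211 and 227 CPM in Hampshire thick libraries, against 310, 418, 473 and 463 CPM in Pietrain thick libraries. The log2 fold change was -1.24 ± 0.23 (SE; adjusted p = 0.0202, edgeR quasi-likelihood). miR-17-5p, from the same cluster and with the same seed, had 93.4, 65.9, 86.0, 137 and 138 CPM in Hampshire libraries, against 170, 237, 218 and 241 CPM in Pietrain libraries. It did not overlap either, but missed the threshold, with a log2 fold change of -1.06 and an interval of -1.66 to -0.46 (adjusted p = 0.0605, edgeR quasi-likelihood). miR-19b, from the same cluster, had a log2 fold change of 0.02 (interval -0.69 to 0.74) and miR-92a one of 0.12 (interval -0.58 to 0.83). With upper quartile scaling all 4 of these miRNAs had negative values. Of the 4 members of the cluster and its paralogs that were tested, 1 was called lower and 0 higher, with a median of -0.52.

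Some miRNAs that narrowly missed the threshold had libraries that were fully separated. miR-140-3p, the more abundant arm of a hairpin best known from cartilage, had 2621, 2203, 2078, 2732 and 3418 CPM in Hampshire libraries, against 3942, 4077, 4335 and 5265 CPM in Pietrain libraries. Its log2 fold change was -0.75 ± 0.18 (SE; adjusted p = 0.0528, edgeR quasi-likelihood), whereas miR-140-5p, the other arm, had 0.17 ± 0.23. miR-365-3p, from a cluster with miR-193 that has been linked to brown fat in mice, had 324, 420, 382, 293 and 295 CPM in Hampshire libraries, against 478, 584, 834 and 542 CPM in Pietrain libraries (log2 fold change -0.83, interval -1.33 to -0.33; adjusted p = 0.0654, edgeR quasi-likelihood).

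miR-1271-5p carries the seed of miR-96, and its values rest on single sequences. It had 410, 586, 351, 224 and 338 CPM in Hampshire libraries, against 191, 181, 196 and 175 CPM in Pietrain libraries (log2 fold change 1.04, interval 0.42 to 1.66; adjusted p = 0.0654, edgeR quasi-likelihood). Each library held exactly 1 of its forms, which are shown because they differ only in length.
22 nt form: cUUGGCACcuaguaagcacuca
20 nt form: cUUGGCACcuaguaagcacu
The 22 nt form held all its reads in Hampshire library 3 (955 reads) and in the 4 Pietrain libraries (547, 591, 158 and 176 reads). The 20 nt form held all of them in Hampshire libraries 1, 2, 4 and 5 (491, 240, 197 and 296 reads). With only the most abundant sequence of each name counted, its direction turned, to a log2 fold change of -1.05.

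miR-452, hosted in the same gene as miR-224 in humans, was listed at 0 in Hampshire libraries 1, 3, 4 and 5 and had 14.6 CPM in library 2, against 157, 84.3, 199 and 74.4 CPM in the Pietrain libraries. Its adjusted p was 0.0605 (edgeR quasi-likelihood), and no fold is given, since the smallest count above 0 in these tables is 6 and a 0 need not mean that no read was found.

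**Figure D2:**
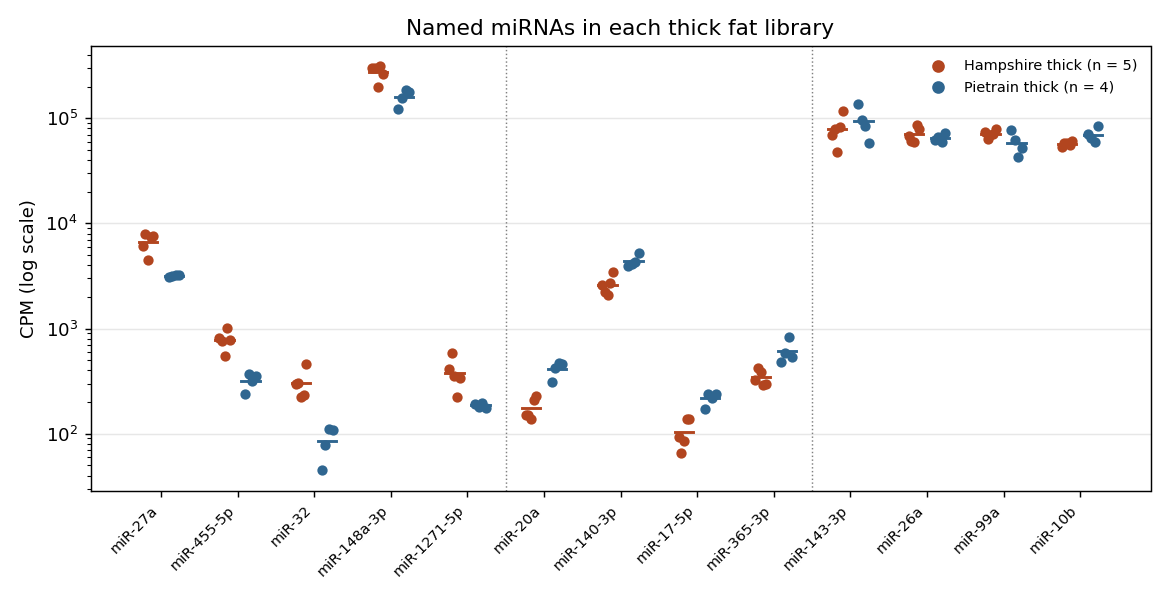
CPM (log scale) of 13 named miRNAs in each of the 5 Hampshire thick (left of each pair) and 4 Pietrain thick libraries; bars are group means. To the left of the first dotted line each Hampshire library lies above each Pietrain one, between the lines (miR-20a to miR-365-3p) each lies below, and to the right are the 4 most abundant miRNAs after miR-148a-3p, whose libraries overlap.

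The 4 most abundant miRNAs after miR-148a-3p were not called. miR-143-3p, a smooth muscle miRNA that also promotes adipocyte differentiation, averaged 79185 ± 25010 CPM in Hampshire and 94299 ± 33000 CPM in Pietrain libraries (SD, n = 5 and 4). Its log2 fold change of -0.25 had an interval of -0.92 to 0.42, and it turned to 0.04 without Pietrain library 1. miR-26a, a widely expressed miRNA that restrains proliferation, had a log2 fold change of 0.11 (interval -0.21 to 0.42), which turned to -0.01 on library totals. miR-99a had 0.29 (interval -0.10 to 0.68) and miR-10b, from the HOXD locus, -0.29 (interval -0.55 to -0.02), both with adjusted p above the threshold (0.357 and 0.184, edgeR quasi-likelihood). In 48 of the 150 miRNAs the interval lay within a log2 fold change of -1 to 1.

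DESeq2 and limma-voom each called miR-17-5p, miR-140-3p, miR-365-3p, miR-1271-5p and miR-452, described above, in the same directions. Further miRNAs with no overlap between breeds were not called by edgeR. DESeq2 and limma-voom each called the 10 of them whose fold changes follow. Those higher in Hampshire were miR-186 (0.70 ± 0.20 SE), miR-151-3p (0.40 ± 0.12), miR-1468 (1.20 ± 0.36) and miR-9 (0.73 ± 0.25). Those lower were let-7e (-0.86 ± 0.25), miR-103 (-0.82 ± 0.25), miR-23b (-0.82 ± 0.25), miR-152 (-0.71 ± 0.23), let-7g (-0.76 ± 0.26), let-7f-5p (-0.90 ± 0.32), miR-9841-3p and miR-145-5p. miR-103, an adipocyte miRNA linked to insulin sensitivity in mice, had 2486 to 4594 CPM in Hampshire libraries, with a median of 3520, against 4740, 5482, 8813 and 5179 CPM in Pietrain libraries. miR-9841-3p was at 0 in 1 Hampshire library and miR-145-5p in 2, so their fold changes are not given. miR-9 is best known from neurons, and its 23 nt form ending in A was at 0 in Hampshire library 5 and in Pietrain libraries 1, 2 and 4, while it had 20 to 99 reads in the other Hampshire libraries. With only sequences that had reads in all 9 libraries counted, the log2 fold change of miR-9 was 0.35 ± 0.34 (SE; adjusted p = 0.551, edgeR quasi-likelihood).

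Several called miRNAs share their seed with miRNAs that were not called. Counts summed by seed gave 117 families, of which 1 (0.855%) was called, that of miR-455-5p, which has a single member (log2 fold change 1.27 ± 0.23 SE; adjusted p = 0.0420, edgeR quasi-likelihood). The family of miR-17-5p, miR-20a and miR-20b stood at -1.19 (adjusted p = 0.0564) and that of miR-148a-3p, miR-148b-3p and miR-152 at 0.71 (adjusted p = 0.0605, both edgeR quasi-likelihood). The miR-27 family had 0.11 (interval -0.34 to 0.57) although miR-27a was called. miR-27b-3p, at 18098 ± 4516 CPM in Hampshire and 19222 ± 2116 CPM in Pietrain libraries (SD, n = 5 and 4), held most of the reads of that family. The family of miR-32 and miR-92 likewise had 0.12 (interval -0.53 to 0.76).

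Ratios of 2 miRNAs with 1 seed within a library do not depend on its scaling. Of 30 such ratios, 8 (26.7%) did not overlap between breeds, each with the smallest exact permutation p that 5 against 4 allows (0.0159). After adjustment over the 30 all 8 had 0.0595, so 0 (0%) passed. These ratios were chosen after values were seen. miR-27a made up 28.0%, 27.2%, 27.8%, 28.4% and 24.8% of the reads of miR-27a and miR-27b-3p together in Hampshire libraries, against 14.1%, 13.7%, 13.0% and 16.5% in Pietrain libraries. The breeds were far apart on this share beside the spread within each. miR-152 made up 1.15%, 1.52%, 1.39%, 1.68% and 2.12% of the reads of miR-152 and miR-148a-3p in Hampshire libraries, against 4.88%, 5.13%, 3.41% and 4.05% in Pietrain libraries. miR-32 made up 2.24% to 10.6% of the reads of miR-32 and miR-92a in Hampshire libraries (median 5.57%), against 0.705%, 1.31%, 1.86% and 1.93% in Pietrain libraries. miR-100 made up 16.2% to 22.0% of the reads of miR-100 and miR-99a in Hampshire libraries (median 19.5%), against 32.1%, 28.0%, 26.4% and 24.0% in Pietrain libraries. The other 4 ratios differed, Hampshire minus Pietrain on the log2 scale, by -0.90 for let-7f-5p over let-7i-5p, by -0.45 for miR-30c-5p over miR-30a-5p, by 0.56 for miR-4334-3p over miR-339-5p and by 0.76 for miR-497 over miR-16. The most abundant sequences of miR-4334-3p and miR-339-5p differ only at the 3′ end, so reads that stop before the difference cannot be told apart.

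**Figure D3:**
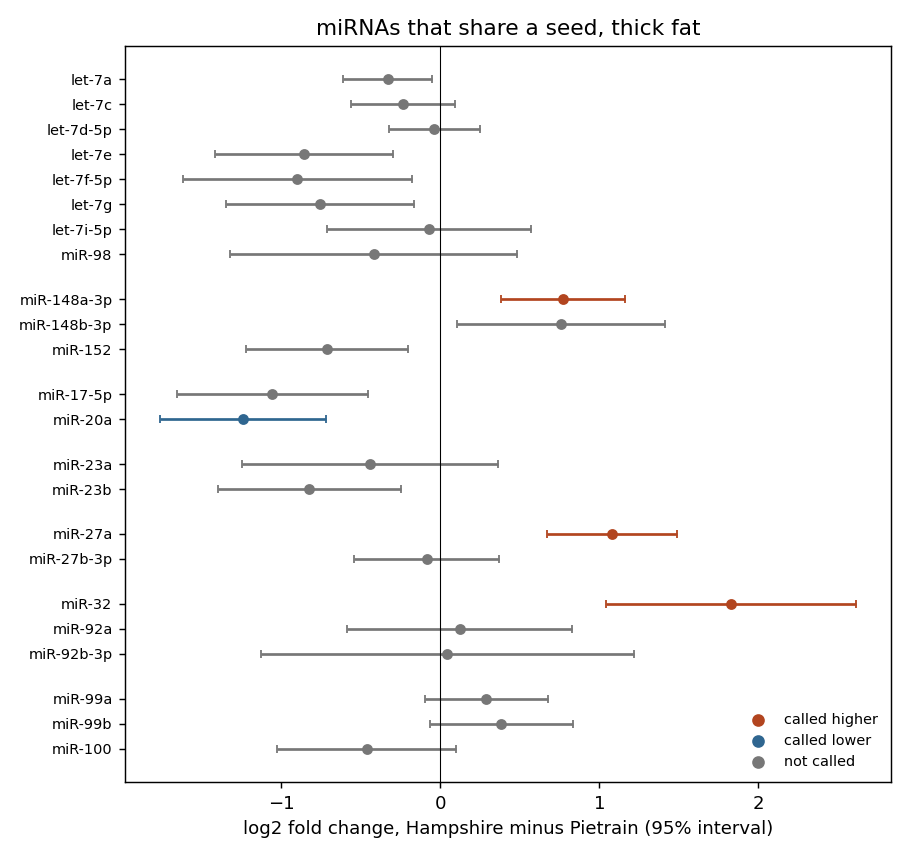
Log2 fold change, Hampshire minus Pietrain, with its 95% interval, for miRNAs grouped by shared seed. The called miRNAs stand beside relatives that were not called, such as miR-27a at 1.08 above miR-27b-3p at -0.09 and miR-32 at 1.83 above miR-92a at 0.12.

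The let-7 family restrains proliferation and, in mouse preadipocytes, differentiation. Of 9 let-7 miRNAs tested 0 were called by edgeR, 4 passed an unadjusted p of 0.05 (22% of all 150 did), and DESeq2 and limma-voom each called 3 lower (let-7g, let-7e and let-7f-5p), where they called 8% and 9.33% of all 150 lower. Of the 9, 8 had negative fold changes, with a median of -0.33 against 0.03 over all 150. The 1 positive value, 0.64, was that of let-7d-3p, the other arm of the let-7d hairpin, which does not have the let-7 seed. When scaling factors left out miR-148a-3p, 7 of the 9 were negative and 1 passed the unadjusted threshold, and on library totals edgeR called 2 lower. let-7f-5p had 14098, 27821, 15262, 39300 and 35646 CPM in Hampshire libraries, against 43930, 54458, 44712 and 54202 CPM in Pietrain libraries. let-7g had 12527, 20158, 11091, 24591 and 26141 CPM in Hampshire libraries, against 31251, 30809, 32123 and 33490 CPM in Pietrain libraries. Hampshire libraries 1 and 3 were the lowest for both, and these 2 miRNAs spread more among Hampshire than among Pietrain libraries. let-7i-5p, with the same seed, overlapped between breeds (log2 fold change -0.07, interval -0.71 to 0.57), and so did let-7d-5p (-0.04, interval -0.33 to 0.25).

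Lists of miRNAs with known roles each held 0, 1 or 2 calls by edgeR, which called 5 of all 150 (3.33%). They share members, and miR-148a-3p stands in several. Among 17 tested promoters of adipogenesis, 1 was called higher (miR-148a-3p), 1 lower (miR-20a) and 15 not called by edgeR, with a median of -0.15. DESeq2 and limma-voom each called 1 higher and 3 lower (miR-20a, miR-17-5p and miR-103), and the median was 0.05 with limma-voom. Among 21 tested repressors, 1 was called higher (miR-27a), 0 lower and 20 not called by edgeR, with a median of -0.33. DESeq2 called 1 repressor higher and 3 lower, and limma-voom 1 higher and 4 lower. Of all 150, these tools called 8% and 9.33% lower. Among 13 miRNAs of the thermogenic adipocyte list, 2 were called higher (miR-455-5p and miR-32), 0 lower and 11 not called by edgeR, with a median of -0.15. This median and that of the promoters are 1 and the same value, that of miR-378-5p, a member of both lists. Other members of that list were not called by edgeR in the main fit, 9 of its 13 values being negative: miR-365-3p had -0.83, miR-196a -1.25 (interval -2.75 to 0.25) and miR-378, hosted in the coactivator gene PPARGC1B, 0.12 (interval -0.31 to 0.55). DESeq2, limma-voom and edgeR with upper quartile scaling each called 1 of the 13 lower, miR-365-3p. In the lipid and cholesterol list 1 of 9 was called, again miR-148a-3p, and the median was 0.75. Of the 9, 7 had positive and 2 negative fold changes. The members miR-128 and miR-185 had 0.95 ± 0.39 and 0.75 ± 0.28 (SE, neither called by edgeR). DESeq2 called miR-185 higher (adjusted p = 0.0356), while limma-voom did not (adjusted p = 0.124). The member miR-103, not called by edgeR, was called lower by DESeq2 (adjusted p = 0.0138) and by limma-voom (adjusted p = 0.0477). In the miR-30 family (4 tested), the miR-10, miR-99, miR-100 and miR-125 clusters (8), the miR-15 and miR-16 family (4), the miR-532 cluster (3), the miR-424 and miR-450 cluster (3) and the DLK1-DIO3 imprinted cluster (3) none were called by edgeR, with medians of -0.35, -0.29, -0.32, -0.92, -0.56 and 0.16. DESeq2 called 1 lower in the miR-10, miR-99, miR-100 and miR-125 clusters (miR-10b) and 1 higher each in the miR-424 and miR-450 cluster (miR-450a) and the DLK1-DIO3 cluster (miR-381-3p). limma-voom called miR-16 lower, miR-450a higher and miR-450c-5p lower, the last of these listed at 0 in 4 Hampshire libraries. Of the 8 miRNAs of the miR-23, miR-24 and miR-27 clusters, only miR-27a was called by edgeR, with a median of 0.02 that turned negative with RLE scaling, upper quartile scaling, library totals and DESeq2.

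Markers of other tissues were read beside these values. The 13 adipocyte markers tested summed to 358000 to 522356 CPM in Hampshire and 361129 to 382563 CPM in Pietrain libraries. Of the 13, 2 were called higher, miR-148a-3p and miR-455-5p, where 2.67% of all 150 were. Fold changes were positive in 6 of the 13 and negative in 7, with a median of -0.15, again the value of miR-378-5p. With limma-voom the median was 0.06. DESeq2 and limma-voom each called miR-103, another of the 13, lower, where they called 8% and 9.33% of all 150 lower. The 3 skeletal muscle markers tested had positive fold changes, a median of 1.48 and 0 calls by edgeR. All 3 passed an unadjusted p of 0.05, DESeq2 called 3 higher and limma-voom 1. Of all 150, 22% passed that unadjusted threshold, while DESeq2 called 10.7% higher and limma-voom 8%. The sum of the 3 muscle markers ran from 307 to 2293 CPM in Hampshire and from 323 to 546 CPM in Pietrain libraries. miR-206, specific to skeletal muscle, had 445, 544, 73.2, 1423 and 698 CPM in Hampshire libraries, against 144, 196, 158 and 91.2 CPM in Pietrain libraries (log2 fold change 2.11 ± 0.70 SE; adjusted p = 0.114, edgeR quasi-likelihood). Hampshire library 3 was the lowest of all 9, and the other 4 Hampshire libraries lay above the Pietrain range. miR-133a-3p and miR-499-5p had 1.48 ± 0.55 and 1.24 ± 0.35 (SE). In Hampshire library 3, where the muscle sum was lowest, miR-27a, miR-455-5p, miR-32 and miR-148a-3p were also at their Hampshire minimum, yet above each Pietrain library. Library 3 had the largest TMM factor, 1.19, against 0.870 to 0.981 in the other Hampshire libraries, which lowers its CPM. With no such factor, miR-148a-3p was lowest in Hampshire library 5 (23.27% of reads, against 23.35% in library 3) and miR-32 in library 4. miR-27a and miR-455-5p stayed lowest in library 3. The part of muscle RNA in the results was not tested. Without Hampshire library 3, 9 miRNAs were called in place of 5, the added ones being miR-133a-3p, miR-206, miR-499-5p and miR-186.

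Other marker lists had no edgeR calls. The 16 lists with none, muscle, let-7 and the clusters above included, held 57 tested miRNAs, of which 12 passed an unadjusted p of 0.05, DESeq2 called 10 and limma-voom 9. Over all 150 the corresponding shares were 22%, 18.7% and 17.3%. The 2 red blood cell markers summed to 485 to 1744 CPM in Hampshire and 508 to 1153 CPM in Pietrain libraries, the 4 leukocyte markers to 1086 to 4590 CPM in Hampshire and 1539 to 2212 CPM in Pietrain libraries, and the 2 arms of the endothelial miR-126 to 35194 to 77891 CPM in Hampshire and 34450 to 47536 CPM in Pietrain libraries. Of the 4 leukocyte markers limma-voom called 1 lower, miR-155-5p (adjusted p = 0.0477), and DESeq2 called 0. The 8 smooth muscle and stroma markers summed to 108702 to 214046 CPM in Hampshire and 145768 to 217141 CPM in Pietrain libraries. DESeq2 called 1 of these 8 lower, miR-10b, and limma-voom 0. The 2 epithelial markers summed to 29.7 to 1824 CPM in Hampshire and 18.6 to 1963 CPM in Pietrain libraries, and the 2 nerve markers to 802 to 2142 CPM in Hampshire and 643 to 1138 CPM in Pietrain libraries. These 2 nerve markers, miR-9 and miR-128, had positive fold changes with a median of 0.84 and passed an unadjusted p of 0.05, and DESeq2 and limma-voom each called miR-9. The nerve list also named miR-129, but miR-129a-5p, which was tested, was not counted with it. miR-129a-5p overlapped between breeds, at 46.7 to 108 CPM in Hampshire and 30.5 to 215 CPM in Pietrain thick libraries (CPM scaled over 14 libraries). It was not called by edgeR, DESeq2 or limma-voom. The endocrine and neural miR-7 had 357 to 636 CPM in Hampshire and 424 to 591 CPM in Pietrain libraries. miR-122, the defining miRNA of liver cells, ranged from 21.7 CPM in Hampshire library 1 to 12159 CPM in Hampshire library 3, against 0 to 2038 CPM in Pietrain libraries.

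**Figure D4:**
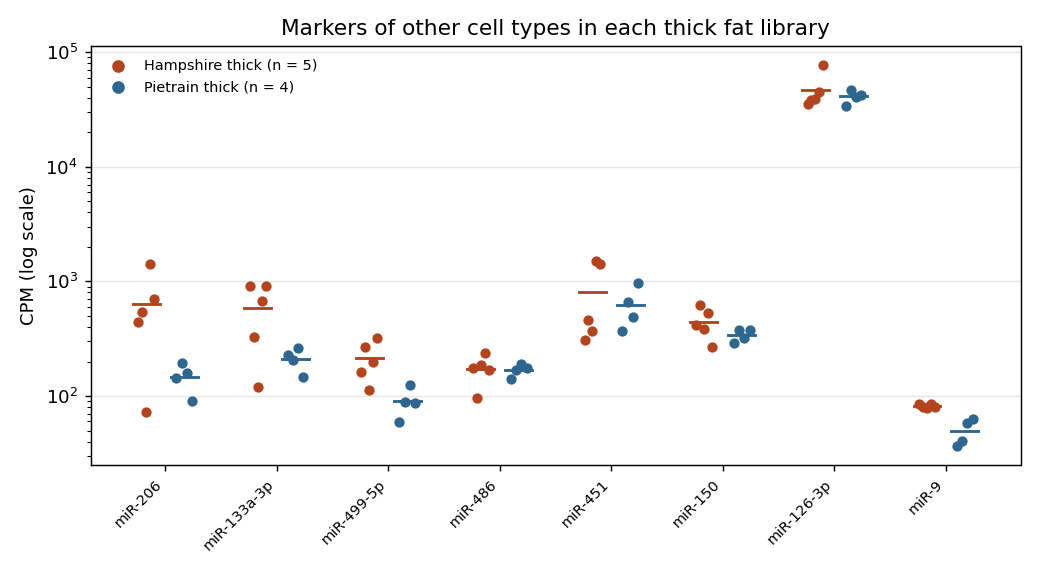
CPM (log scale) of markers of other cell types in each of the 5 Hampshire thick (left of each pair) and 4 Pietrain thick libraries, with group means as bars. The muscle miRNAs miR-206, miR-133a-3p and miR-499-5p reach higher in Hampshire libraries, up to 1423 CPM for miR-206, and blood and endothelial markers overlap.

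Several miRNAs with many reads elsewhere were listed at 0 in single libraries. Of the 150 tested, 36 were at 0 in 1 or more libraries, and in 17 this happened where at least 100 reads were expected from the median CPM of the other libraries. miR-199ab-3p had 10519, 14051, 0, 22335 and 32144 CPM in Hampshire libraries, against 0, 0, 17214 and 0 CPM in Pietrain libraries. miR-145-5p, a smooth muscle miRNA, had 2723, 3228, 2503, 0 and 0 CPM in Hampshire libraries, against 7377, 5595, 5805 and 3593 CPM in Pietrain libraries. miR-142-5p, a leukocyte miRNA, was at 0 in 2 Hampshire and 3 Pietrain libraries, and miR-450c-5p in 4 Hampshire libraries. Such zeros stood in 10 miRNAs in Hampshire and in 11 in Pietrain libraries. When only the 114 tested miRNAs with reads in all 9 libraries were fitted, 17 (14.9%) were called in place of 5 (7 higher, 10 lower) and all 5 remained among them. In that fit miR-27a, miR-32 and miR-455-5p stayed called with each of the 9 libraries left out in turn.

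The same breeds were compared in thin fat, in other libraries, in a fit with CPM scaled over 14 libraries of both fat classes. There, 12 of 185 miRNAs (6.49%) were called between Hampshire and Pietrain, and 4 of the 5 called in thick fat were among them. miR-455-5p had 644 and 1145 CPM in Hampshire thin libraries, against 296, 368 and 379 CPM in Pietrain thin libraries (log2 fold change 1.36 ± 0.29 SE; adjusted p = 0.0261, edgeR quasi-likelihood). miR-32 had 176 and 234 CPM in Hampshire thin libraries, against 69.1, 79.9 and 57.0 CPM in Pietrain thin libraries (1.58 ± 0.39). miR-148a-3p had 258516 and 348504 CPM in Hampshire thin libraries, against 144814, 178056 and 166668 CPM in Pietrain thin libraries (0.90 ± 0.22). In these 3, and in miR-20a and miR-27a below, the thin fat libraries of the breeds did not overlap. With only 2 against 3 libraries that is a weak criterion, and the share of all miRNAs meeting it was not counted. miR-20a had 128 and 211 CPM in Hampshire thin libraries, against 731, 423 and 470 CPM in Pietrain thin libraries (-1.68 ± 0.35). miR-27a was not called in thin fat, with 6710 and 6149 CPM in Hampshire and 2943, 4392 and 5240 CPM in Pietrain thin libraries (0.62 ± 0.24; adjusted p = 0.154, edgeR quasi-likelihood). The other thin fat calls included miR-140-3p (-1.63 ± 0.25), miR-17-5p (-1.36 ± 0.37), miR-186 (1.11 ± 0.26) and miR-9 (1.51 ± 0.41), which in thick fat were separated without an edgeR call.

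All 22 miRNAs without overlap in thick fat had the same sign in thin fat, against 102 of all 150, and miR-1468 was close to 0 there (0.01 ± 0.53 SE). Among the 22, miR-145-5p and miR-452 were listed at 0 in both Hampshire thin libraries, which need not mean absence. The thin libraries also stood in the same breed tables as the thick ones. A test of whether the breed difference itself varied with fat class called 0 of 185 (0%) with edgeR, 11 at an unadjusted p of 0.05. limma-voom called 0 and DESeq2 6. miR-206 and miR-133a-3p had negative values in thin fat (-0.50 ± 1.12 and -0.59 ± 0.83), and neither passed the test of the difference (adjusted p = 0.649 for both, edgeR quasi-likelihood).

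**Figure D5:**
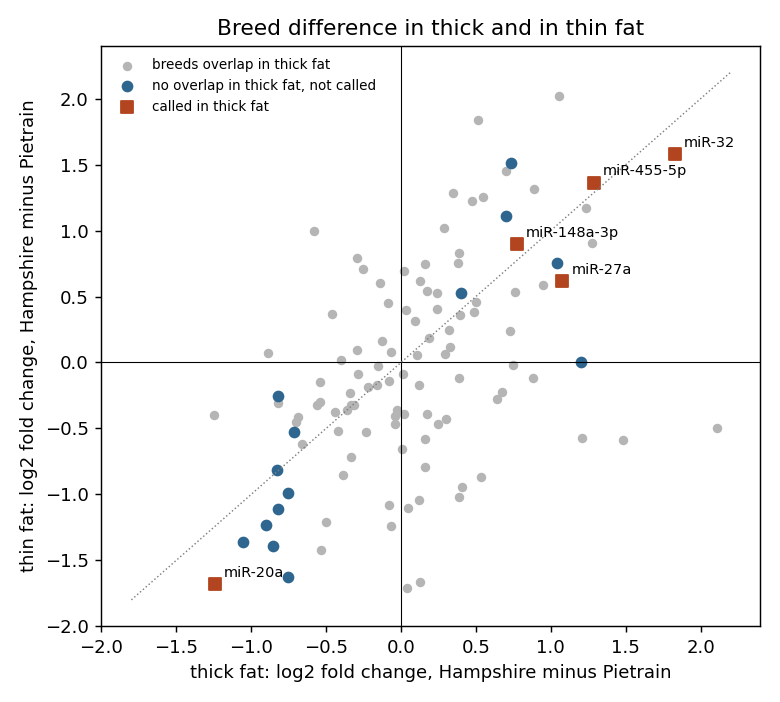
Log2 fold change, Hampshire minus Pietrain, in thick fat (fit of 9 libraries) against thin fat (2 and 3 libraries, in a fit of 14), for miRNAs with reads in all 9 thick fat libraries; the dotted line marks equal values. The 5 called miRNAs (squares) have the same sign in both, miR-32 at 1.83 and 1.58 and miR-20a at -1.24 and -1.68.

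Large White thick fat was set beside these values as another breed, with a table of its own. In a fit over all 22 libraries, whose CPM scaling is used here, 7 of 188 miRNAs (3.72%) were called between Hampshire and Large White thick fat, and 0 of 188 (0%) between Pietrain and Large White thick fat (5 at an unadjusted p of 0.05). These comparisons use the same Hampshire and Pietrain libraries as those above, so they add no independent test. miR-27a averaged 6868 ± 1614 CPM in Hampshire, 3205 ± 170 CPM in Pietrain and 3304 ± 481 CPM in Large White libraries (SD, n = 5, 4 and 4). miR-32 averaged 310 ± 111 CPM in Hampshire, 85.0 ± 29.1 CPM in Pietrain and 82.7 ± 13.8 CPM in Large White libraries. miR-148a-3p averaged 279906 ± 47260 CPM in Hampshire, 161065 ± 23010 CPM in Pietrain and 161236 ± 46213 CPM in Large White libraries. For these 3 miRNAs the Pietrain and Large White means were close and the Hampshire mean stood above both. miR-455-5p averaged 799 ± 189 CPM in Hampshire, 320 ± 41.7 CPM in Pietrain and 395 ± 102 CPM in Large White libraries. miR-20a averaged 181 ± 52.9 CPM in Hampshire, 416 ± 59.3 CPM in Pietrain and 297 ± 33.5 CPM in Large White libraries, which put Large White between the other breeds. By column position in the Large White table, 1 library labelled thick stands among the thin ones and 1 labelled thin among the thick ones. With these exchanged, 16 (8.51%) were called between Hampshire and Large White thick fat.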

How the data were processed

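Per the labels' protocols, fat was kept in RNAlater after slaughter and small RNA libraries were sequenced in 36 cycles from 1 end. The authors deposited 1 table per breed of raw read counts per sequence and miRNA name. Per the submitters' processing notes, Sscrofa10.2 was the pig assembly and the tools included DESeq2, FastQC and bcl2fastq. The trimmer, aligner and miRNA annotation are not given in the sources used here. Coordinates are left out. The deposited comparisons of fat classes were not used.

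Counts were summed per miRNA name in each table and joined on names in both (197 of 243 in either). Unnamed sequences, 0.0292% to 0.192% of reads per library, were left out. The smallest count above 0 was 6. Over the tables, 10 sequences stood under 2 names. edgeR 4.0.16's quasi-likelihood test (robust; R 4.3.3) followed TMM scaling and its default filter, Benjamini-Hochberg adjustment and a 0.05 threshold. Single library values had an exact two-sided permutation test in Python (scipy 1.17.1). Only the edgeR test per miRNA name was run on simulated counts, and the other tests were not. Seed families were sums over names with 1 seed in their most abundant sequence. Alternatives were other scalings and filters, DESeq2 1.42.0, limma-voom (limma 3.58.1), all 22 libraries, other ways to choose names or sequences, and leaving out libraries.

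Named miRNAs were the 12 of smallest p per direction past the threshold, or, where fewer than 5 passed, the 5 of smallest unadjusted p, and the 5 most abundant; marker miRNAs, miRNAs at 0 where 100 reads were expected, and those without overlap between breeds are named apart. The comparison, the lists and the rule were chosen with earlier results of these data known. Nothing says that libraries came from separate litters, so p-values measure only how these libraries spread, which may be technical. No molecular identifiers are named in the labels, and PCR copies are not separate molecules.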

Additional observations from a re-analysis of the deposited data

Results flagged for a closer look

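In groups of 4 or 5 libraries a single library was set against the rest by its gap to the nearest other one as a share of the whole range of the group. Of 38 such groups of values 2 stood out, and chance alone gives about 1 in 20. miR-452 was highest in Hampshire thick library 2, at 14.6 CPM with the other 4 Hampshire libraries at 0, so the gap was the whole range (1.0). Mean read length was lowest in Hampshire thick library 5, at 21.7 nt, with a gap of 0.733 of the range. That library was not among those whose removal ended the calls of miR-27a, miR-455-5p, miR-32 and miR-20a.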

How the results depend on the processing

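The number of called miRNAs (5) was 6 with RLE, 5 with upper quartile scaling, with a 10 CPM filter and with TMM without miR-148a-3p, and 13 on library totals, 28 with DESeq2, 26 with limma-voom, 16 with all 22 libraries, 17 with names that had reads in all 9 libraries, 8 with no filter, 12 with names in either table, 18 with the most abundant sequence only and 19 with sequences that had reads in all 9. The split was 16 higher and 12 lower with DESeq2, 12 and 14 with limma-voom, 4 and 9 on library totals, 7 and 10 with names in all 9 and 15 and 3 with the most abundant sequence only, where the median of all log2 fold changes was 0.32. With 1 library left out the count ran from 0 to 9, and from 3 to 19 with names in all 9, a setting chosen after the data were seen. The 5 called miRNAs kept their direction in all alternatives. The count of called seed families (1) was 3 with RLE, 3 with upper quartile, 4 on library totals, 16 with DESeq2, 8 with limma-voom, 8 with all 22 libraries and 6 with names in all 9, and ran from 0 to 6 with 1 library left out. The count for breed by fat class (0) was 6 with DESeq2 (miR-142-5p, miR-145-3p, miR-145-5p, miR-210, miR-450c-5p and miR-500) and ran from 0 to 1 with 1 library left out. The direction turned for miR-1271-5p (-1.05), miR-143-3p (0.15) and miR-10b (0.0061) with the most abundant sequence only, for miR-143-3p without Pietrain library 1 (0.043, in a range down to -0.44 with 1 library left out), and for miR-26a on library totals (-0.014) and with names in all 9 without Hampshire library 4 (-0.020). Causes were not tested. Library measures kept their direction and side of the threshold with each library left out. No paired analysis was possible because the labels pair no libraries across breeds. Depth limits rare miRNAs: 47 joined names had too few reads to be tested.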

Other observations

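Names that stood in 1 breed's table were left out of the fold changes above. When they were fitted as well, with 0 in the other breed, 153 miRNAs were tested and edgeR called 12, miR-144, miR-214-3p and miR-214-5p among them. miR-214-3p, a miRNA of stromal cells, stood in the Pietrain table alone, with 2816, 3240, 864 and 1031 reads in the 4 Pietrain thick libraries, and miR-214-5p likewise with 165, 170, 36 and 40 reads. miR-144, a red blood cell miRNA, stood in the Hampshire table alone, with 23, 8, 96, 53 and 36 reads in the 5 Hampshire thick libraries. miR-192, known from liver and gut, stood in the Hampshire table alone, with 22838 reads in Hampshire thick library 3, 964 in library 5 and 0 in the other 3. Library 3 was also the one with the highest miR-122, at 12159 CPM. Of the tables' names, 26 were in the Hampshire table only and 20 in the Pietrain table only.

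In 134 of the 150 tested miRNAs the most abundant sequence was the same in both breeds. The arms of 1 hairpin could be compared in 12 pairs with reads in every library, and their fold changes had the same sign in 6. miR-151-3p had 0.40 ± 0.12 and miR-151-5p -0.32 ± 0.29 (log2, SE), while miR-148a-3p had 0.77 ± 0.17 and miR-148a-5p 0.39 ± 0.20.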
